A study of Mus musculus with 2 samples.

Results

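The miR-219 and miR-338 loci comprise 5 microRNA (miRNA) genes of the mouse, Mir219a-1, Mir219a-2, Mir219b, Mir338 and Mir3065, out of 2202 miRNA genes counted. They were picked by gene symbol in the GENCODE M21 annotation, and all 5 had a row in both count tables. The material was left cerebral cortex of the B6CASTF1/J mouse, the first-generation hybrid of C57BL/6J and CAST/EiJ, at 18 to 20 months of age and with no treatment named in the labels. The 2 libraries of RNA under 30 nt form 1 group and are numbered as biological replicates 1 and 2. Their tissue records are separate but share 1 donor record, so the spread between them may be partly technical, and no comparison between conditions exists. The sample fields give the sex as male and the free text as female, and sex was not used.

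Oligodendrocytes are the glial cells that wrap axons of the central nervous system in myelin. miR-219 and miR-338 rise when oligodendrocyte precursors leave the cell cycle and mature, and they repress transcripts that hold the precursor state, among them the growth factor receptor Pdgfra and the transcription factor Sox6. A miRNA gene gives a hairpin RNA, from which a 5p and a 3p arm are cut, and the seed of an arm, its bases 2 to 8, pairs with target transcripts. In bulk tissue, fewer cells of a type and less RNA per cell cannot be told apart.

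Reads on the strand of a miRNA gene numbered 2381663 in replicate 1 and 4436398 in replicate 2, out of 8041772 and 12239366 reads in all. Levels are in CPM, the reads of a gene scaled to this gene-strand total of its library, and a count of 0 allows a level of up to 1.26 CPM in replicate 1 and 0.676 CPM in replicate 2, by counting error only. Reads mapped to several places, 35.6% of replicate 1 and 44.8% of replicate 2, were assigned to no gene. Unmapped reads made up 30.8% of replicate 1 and 14.6% of replicate 2. Neuronal Mir132 (69646 and 43349 CPM in replicates 1 and 2), Mir128-1 (14354 and 19064 CPM) and Mir383 (6310 and 7012 CPM) were abundant in this cortical tissue. Neuronal Mir124a-1, Mir124a-2 and Mir124a-3 had at most 4 placed reads in a library. Whether further reads of the Mir124a genes stood among those mapped to several places was not tested, so these counts need not measure miR-124.

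The mature arms are shown first because 1 of them decides which reads of the miR-219a genes could be counted. All 5 hairpins were found in RefSeq (GRCm38.p6) at the coordinates of GENCODE M21, and the table lists 7 distinct mature arms for them, given here 5′ to 3′ with the seed in capitals.
miR-219a-5p (Mir219a-1 and Mir219a-2): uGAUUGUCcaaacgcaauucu
miR-219a-1-3p (Mir219a-1): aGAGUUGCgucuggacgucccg
miR-219b-5p (Mir219b): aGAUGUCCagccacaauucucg
miR-219b-3p (Mir219b): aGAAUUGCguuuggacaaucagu
miR-338-5p (Mir338): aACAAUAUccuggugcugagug
miR-338-3p (Mir338): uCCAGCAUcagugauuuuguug
miR-3065-5p (Mir3065): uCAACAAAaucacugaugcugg
The 7 seeds all differed from one another, and none was found in another miRNA's arm among the 1738 mature entries of the table. miR-219a-5p, the arm known for its role in myelination, stands whole in the hairpins of both Mir219a-1 and Mir219a-2. Such arms are few: 59 of 1674 distinct mature sequences (3.52%) lie in 2 or more of the 1005 hairpins. The other 6 arms listed lie in 1 hairpin each.

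The hairpins of Mir219a-1 and Mir219a-2 are shown next, in lower case with their longest common run in capitals.
Mir219a-1: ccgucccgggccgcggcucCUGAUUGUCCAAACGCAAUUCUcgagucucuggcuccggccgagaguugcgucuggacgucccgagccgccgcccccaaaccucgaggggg
Mir219a-2: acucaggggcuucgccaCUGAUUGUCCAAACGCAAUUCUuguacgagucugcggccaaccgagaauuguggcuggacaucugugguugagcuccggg
The run is 22 bases long. It covers the 21 bases of miR-219a-5p and 1 base before them, and ends at the last base of the arm. A read of exactly miR-219a-5p therefore matches both loci without a difference, whereas a read with further bases at its 3′ end, or from the other arm (miR-219a-1-3p or miR-219a-2-3p), can match 1 locus alone. The counts of Mir219a-1 and Mir219a-2 are uncertain for this reason and need not measure miR-219a-5p. How many reads of that arm stood among the reads mapped to several places was not tested, since the tables give no sequences. Mir219b and Mir219c, the genes on the other strand of these hairpins, share a run of 20 bases. The hairpins of Mir338 and Mir3065 shared no word of 20 bases, on either strand, with an annotated transcript of a gene that does not overlap them.

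The members lie at 3 places in the genome (mm10). Mir219a-2 (ENSMUSG00000065485.1) is the minus-strand gene at chr2:29845631-29845727, between genes, with the protein-coding Urm1 on the plus strand ending 629 bases away, and Mir219b (ENSMUSG00000105010.1) lies inside it on the plus strand at chr2:29845647-29845711. Mir338 (ENSMUSG00000065600.1) is the minus-strand gene at chr11:120014765-120014862, in an intron of Aatk, which encodes a kinase and is transcribed from the same strand. Mir3065 (ENSMUSG00000105524.1) lies opposite it on the plus strand at chr11:120014767-120014853, antisense to Aatk. Mir219a-1 (ENSMUSG00000065555.1) is the minus-strand gene at chr17:34024983-34025092, overlapping an exon of the noncoding Gm26940 on the same strand and 303 bases from Ring1, and it has the plus-strand miRNA gene Mir219c opposite it. The 5 hairpins are 65 to 110 bases long. GC content was 69.1% for Mir219a-1 and between 49.2% (Mir219b) and 56.1% (Mir338) for the other members. The 3 loci thus share one layout, a miRNA gene on each strand over the same bases.

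**Figure D1:**
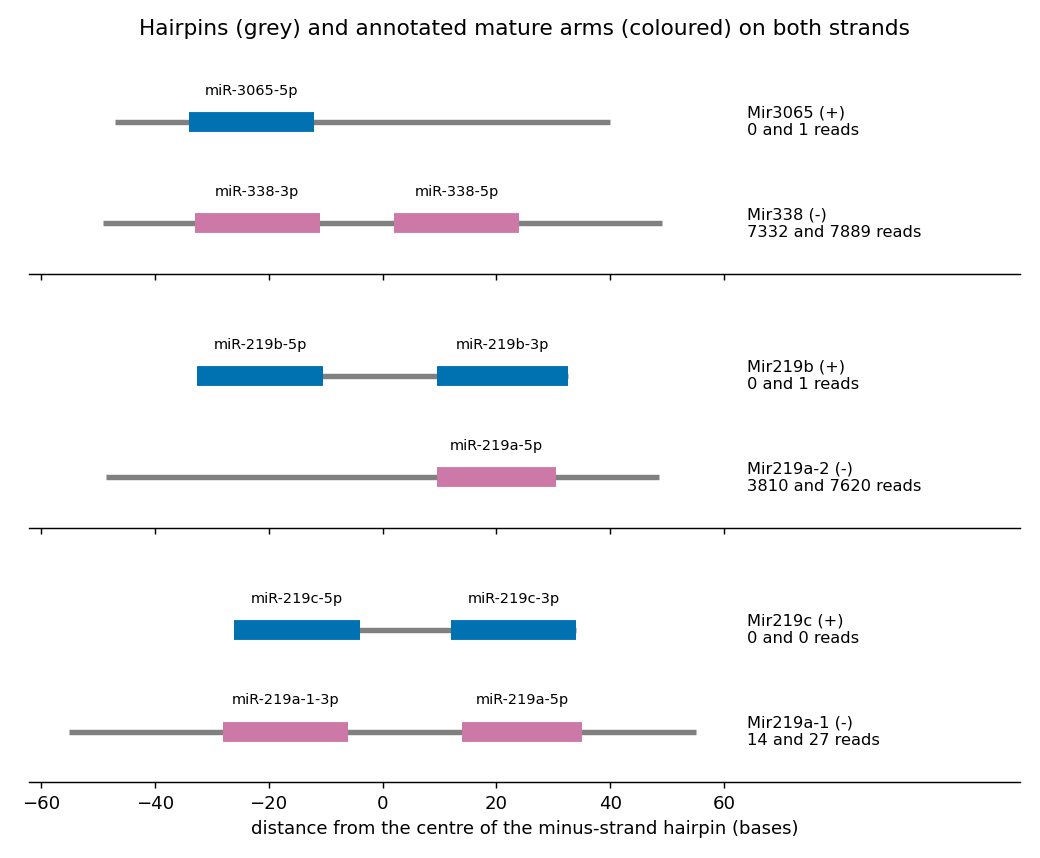
Hairpins (grey bars) and the mature arms annotated in RefSeq (coloured bars) on the plus and minus strands of the 3 loci, by distance in bases from the centre of the minus-strand hairpin, with gene-strand reads of replicates 1 and 2 at the right. Reads fell on the minus-strand gene at each locus: 7332 and 7889 at Mir338, 3810 and 7620 at Mir219a-2, and 14 and 27 at Mir219a-1.

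Of the miR-219a genes, Mir219a-2 carried nearly all reads that could be placed. It had 3810 reads in replicate 1 and 7620 in replicate 2, or 1600 and 1718 CPM, a mean of 1659 ± 83.4 CPM (SD, n = 2). Its rank among all miRNA genes was 74 in replicate 1 and 72 in replicate 2. The 2 libraries lay close together, with a coefficient of variation of 5.03%.

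Mir219a-1, the second source of miR-219a-5p, had 14 reads in replicate 1 and 27 in replicate 2, or 5.88 and 6.09 CPM, a mean of 5.98 ± 0.147 CPM (SD, n = 2). It ranked at 339 and 343. Each read at Mir219a-1 thus stood against 272 at Mir219a-2 in replicate 1, with a 95% exact binomial interval of 162 to 498, and against 282 in replicate 2, with an interval of 194 to 429. These ratios differed by less than counting error (two-sided Fisher's exact test, p = 1). They hold for placed reads only. Counts were not divided by hairpin length, on the assumption, not tested here, that a read spans a mature arm.

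By placed reads, Mir338 was the most abundant member in both libraries, though in replicate 2 only by 7889 to 7620 for Mir219a-2. Reads that match both miR-219a genes are missing from the counts of Mir219a-2, so this order need not hold for the miRNAs. Mir338 had 7332 reads in replicate 1 and 7889 in replicate 2, or 3079 and 1778 CPM, a mean of 2428 ± 919 CPM (SD, n = 2), with ranks of 51 and 70. Its coefficient of variation of 37.9% was above the 5.03% of Mir219a-2. The means of 28 other genes, at ranks 49 to 77, lay within 1 SD of that of Mir338, so its place in the order is loose. Mir219a-2 had 4 such genes, at ranks 71 to 75.

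**Figure D2:**
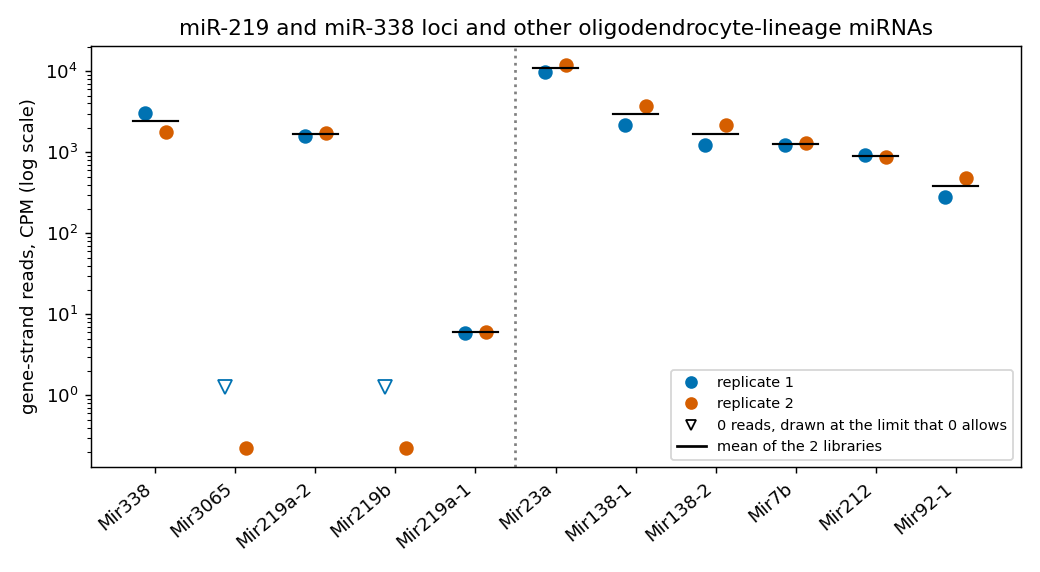
Gene-strand level in CPM (log scale) of the 5 members, left of the dotted line, and of the 6 most abundant other oligodendrocyte-lineage miRNAs, right of it, with 1 point per library and a bar at the mean. Mir338 and Mir219a-2 lie between 1600 and 3079 CPM, Mir219a-1 near 6 CPM, and Mir3065 and Mir219b hold 1 read each, in replicate 2; open triangles mark 0 reads at the limit of 1.26 CPM.

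The neighbours of Mir338 in mean level were Mir598 (2570 ± 289 CPM, SD, n = 2) and Mir485 (2437 ± 716 CPM) above it and Mir222 (2327 ± 1815 CPM) and Mir369 (2324 ± 519 CPM) below it. Those of Mir219a-2 were Mir138-2 (1701 ± 664 CPM) and Mir154 (1663 ± 213 CPM) above it and Mir1839 (1604 ± 252 CPM) and Mir1249 (1558 ± 160 CPM) below it. None of the 8 differences from the neighbouring member was larger than the SD of the more variable gene of its pair. Over the 2 libraries together, the genes nearest to Mir338 by Euclidean distance of log2(CPM + 1) were Mir369 (distance 0.24), Mir27b (0.32) and Mir107 (0.33). Nearest to Mir219a-2 were Mir150 (0.10), Mir154 (0.11) and Mir1249 (0.15). With 2 points per gene this is a likeness of level alone.

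**Figure D3:**
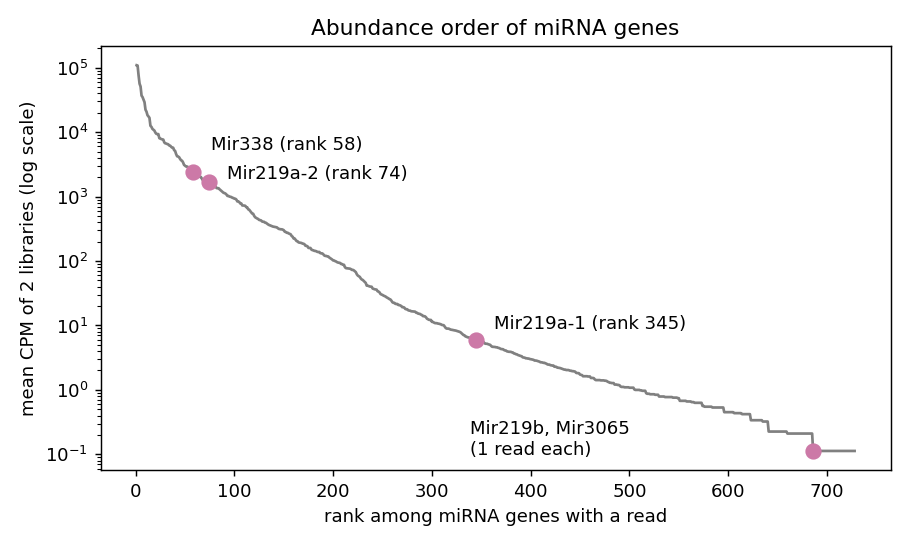
Mean CPM of 2 libraries (log scale) of the 728 miRNA genes with a read, in order of abundance (line), with the members as points. Mir338 and Mir219a-2 stand at ranks 58 and 74, Mir219a-1 at 345, and Mir219b and Mir3065 in the tail of genes with 1 read.

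The opposite-strand partners were nearly without reads. Mir3065 had 0 reads in replicate 1 and 1 in replicate 2, which is 0.00657% of the 15222 reads of its pair with Mir338 (95% exact binomial interval 0.000166 to 0.0366%). The 0 of 7332 reads in replicate 1 allows a share of up to 0.0409%. Mir219b likewise had 0 reads and 1 read, or 0.00875% of the 11431 reads of its pair with Mir219a-2 (0.000221 to 0.0487%), and its 0 of 3810 reads allows up to 0.0787%. Mir219c, opposite Mir219a-1, had 0 reads in both libraries, next to only 41 reads of its partner, so a share of several percent could have gone unseen there. Reads that match both miR-219a loci are missing from the pairs of Mir219a-2 and of Mir219a-1. The shares and limits of these pairs therefore hold for placed reads only, and how the missing reads would change them was not tested.

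The column of the opposite strand holds the same reads a second time. Mir3065 had 7332 and 7889 opposite-strand reads, exactly the gene-strand reads of Mir338, and Mir219b had 3810 and 7620, exactly those of Mir219a-2. Mir338 and Mir219a-2 each had 0 and 1, which are the reads of their partners. The opposite-strand counts at Mir3065 and Mir219b are therefore no sign of expression of these genes. In the column that counts both strands together, all 5 members stand at 0 in both libraries.

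The paired arms cover the same bases. miR-3065-5p and miR-338-3p, each 22 bases long, overlap by 21 bases on opposite strands and are complementary over them. miR-219b-3p, 23 bases long, covers all 21 bases of miR-219a-5p in the same way. Over these bases the strand of a read tells the arms apart.

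The strand shares were set beside those of the other overlapping miRNA genes. The annotation holds 32 pairs of miRNA genes on opposite strands, and 27 had at least 10 reads. In 19 of the 27 the weaker strand had no read at all, and the pairs Mir338 with Mir3065 and Mir219a-2 with Mir219b, at 1 read each, were among the other 8. The most abundant pairs had 0 reads on the weaker strand: Gm25927 opposite Mirlet7e (255372 reads), Mir126b opposite Mir126a (120975), Gm24083 opposite Mir191 (71516) and Gm25301 opposite Mir378a (24974). Strand shares did not pass a two-sided Fisher's exact test between the libraries at any pair, 0 of 27 (0.0%) with Benjamini-Hochberg adjustment, and 0 pairs had an unadjusted p under 0.05. Single reads at Mir3065 and Mir219b leave such a test little to detect.

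**Figure D4:**
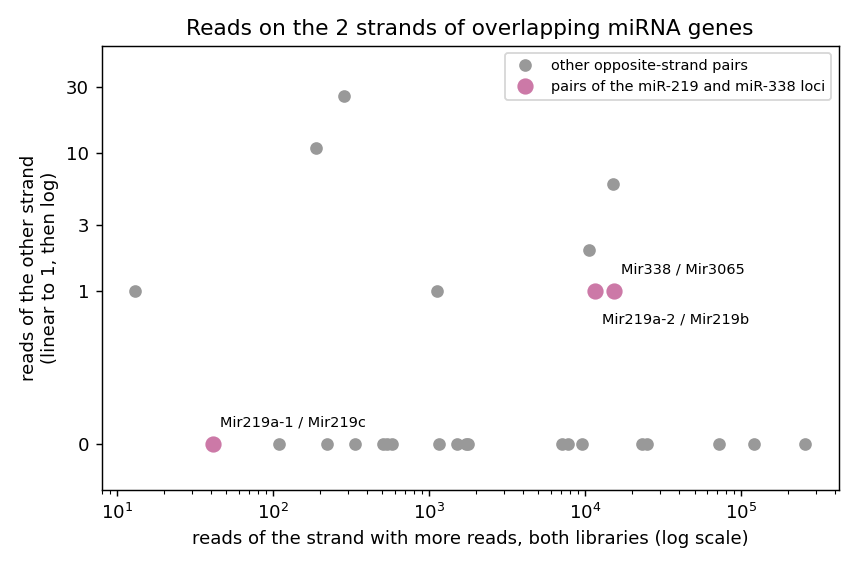
Reads of the weaker strand (linear to 1, then log scale) against reads of the stronger strand (log scale), both libraries summed, for 27 pairs of overlapping miRNA genes. The pairs of Mir338 and of Mir219a-2 each have 1 read on the weaker strand, and 19 pairs, that of Mir219a-1 among them, have none.

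Mir338 and Mir219a-2 differed in how they moved between the libraries. Mir338 was higher in replicate 1, at 3079 against 1778 CPM, a log2 ratio of 0.82 ± 0.02 (counting SE) with library sizes scaled by TMM. Mir219a-2 was near even, at 1600 against 1718 CPM, with a log2 ratio of -0.075 ± 0.029 that turned to 9.47e-05 with RLE size factors. Mir219a-1 stood at 0.0017 ± 0.47. An exact binomial test, which allows for counting noise alone and compares these libraries and not conditions, called 2 of the 3 members with at least 10 reads, Mir338 (Benjamini-Hochberg adjusted p = 4.01e-262) and Mir219a-2 (adjusted p = 0.0184). Mir219b and Mir3065 had too few reads to be tested. The same test called 52.1% of all 472 genes tested, 24.6% higher in replicate 1 and 27.5% higher in replicate 2, so being called says little about a member. The median log2 ratio of all 472 genes was -0.075, where Mir219a-2 lay. Ratios larger in size than that of Mir338 were seen for 129 of the 472 genes (27.3%), and for 15 of the 95 genes with a mean of at least 1000 CPM (15.8%). With the spread between the libraries estimated as a common dispersion (biological coefficient of variation 0.351), edgeR's exact test called 0.424% of genes, and neither Mir338 nor Mir219a-2 (adjusted p = 1 for both). That test sets 1 library against 1, and its dispersion comes from the difference between these same 2 libraries, so few calls follow from its construction and it is no evidence that a gene did not differ.

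**Figure D5:**
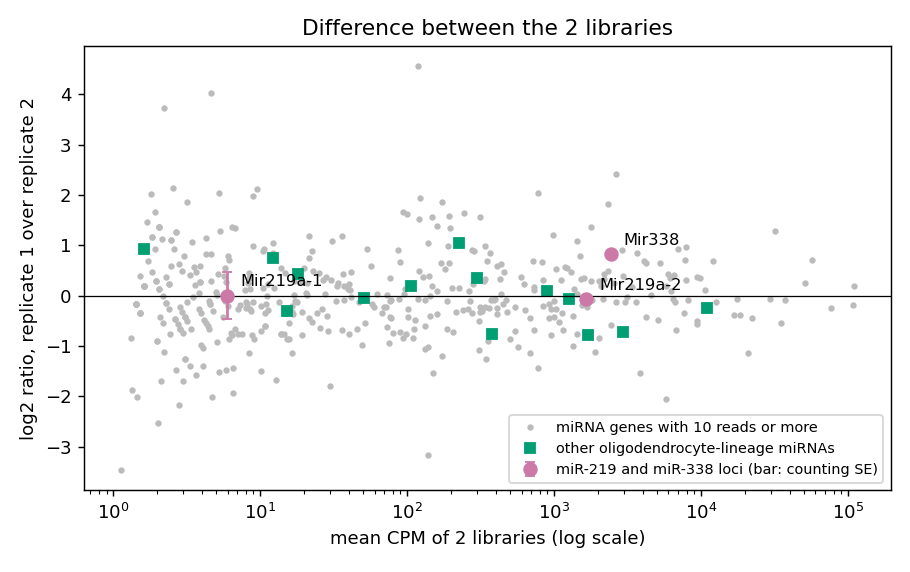
Log2 ratio of replicate 1 over replicate 2 against mean CPM (log scale) for the 472 miRNA genes with at least 10 reads in total (grey), the other oligodendrocyte-lineage miRNAs (green) and 3 members (purple, bars: counting SE). Mir338 lies at 0.82, Mir219a-2 at -0.075 and Mir219a-1 at 0.0017, and all 3 lie within the cloud of all genes.

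The ratio of the 2 main members within a library needs no scaling to depth. In replicate 1 there were 1.92 reads of Mir338 per read of Mir219a-2, with a 95% exact binomial interval of 1.85 to 2.00. In replicate 2 there were 1.04, with an interval of 1.00 to 1.07. The mean was 1.48 ± 0.629 (SD, n = 2). The ratio was 1.86 times as high in replicate 1, beyond counting noise (two-sided Fisher's exact test, p = 1.44e-131). Mir338 was thus clearly ahead of Mir219a-2 in replicate 1 and about level with it in replicate 2. Both genes are taken as markers of mature oligodendrocytes, and their counts did not keep one proportion. The counts of Mir219a-2 exclude reads that match both miR-219a genes, and the share of reads mapped to several places was 35.6% in replicate 1 and 44.8% in replicate 2. Whether this moved the ratio was not tested.

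Markers of other cells also differed between the libraries. The 2 mural markers, Mir143 and Mir145a, of pericytes and vascular smooth muscle, summed to 10855 CPM in replicate 1 and 5719 in replicate 2, and both were called higher in replicate 1. The 3 myeloid markers, Mir223, Mir142 and Mir155, summed to 208 and 101 CPM, with 1 called, Mir142. The 7 neuronal markers summed to 93182 and 72611 CPM, of which 4 were tested, with Mir132 higher in replicate 1 and 3 higher in replicate 2. The 3 Mir124a genes had too few placed reads to be tested. The astrocyte-associated Mir29a, Mir29c and Mir23a summed to 30792 and 39722 CPM, with 1 higher in replicate 1 and 2 in replicate 2. Endothelial Mir126a stood at 17007 and 18138 CPM, and Mir204 and Mir211 of the choroid plexus summed to 672 and 589 CPM. The binomial test called 12 of the 15 distinct markers tested, against 52.1% of all genes, and edgeR's exact test called 0 of them. Because the binomial test allows for counting noise alone, it called even Mir126a, at a log2 ratio of -0.065. Markers were not matched to other genes by read count, so their larger share says little about them. No marker on these lists was at 0 in both libraries. Their part in the higher level of Mir338 in replicate 1 was not tested.

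The 5 members together summed to 4684 CPM in replicate 1 and 3502 CPM in replicate 2, which is 0.468% and 0.35% of gene-strand reads. By placed reads, this sum of 5 genes lay below the single gene Mir126a of the endothelium (17573 ± 799.7 CPM, SD, n = 2). It lay above the single gene Mir204 of the choroid plexus (626 ± 60.9 CPM). Both relations held in each library. Reads that match both miR-219a genes are missing from the sum, so its shares and this order need not hold for the miRNAs. The levels compared come from the same 2 libraries and are therefore paired. An exact permutation test of 2 values against 2 that ignores this pairing cannot go below p = 0.333. A permutation test that keeps the pairing has a still higher floor, so no test of these levels was made.

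Other miRNAs that act in the oligodendrocyte lineage were taken from a list of 18 names, of which 16 matched the annotation. They include miR-138, which acts early in differentiation, miR-23a, which favours myelin gene expression, and members of the miR-17-92 cluster, which promote precursor growth. None is restricted to this lineage. Their counts hold placed reads only, so miRNAs with an arm in several hairpins can be undercounted in the sum and the order below. How many of them were affected was not tested. Their sum was 16581 CPM in replicate 1 and 21040 CPM in replicate 2, most of it Mir23a at 10909 ± 1427 CPM (SD, n = 2). Mir138-1 followed at 2934 ± 1048 CPM, Mir138-2 at 1701 ± 664 CPM, Mir7b at 1258 ± 62.8 CPM, Mir212 at 899 ± 28.1 CPM and Mir92-1 at 381 ± 145 CPM. Only 2 of the 16, Mir23a and Mir138-1, had a higher mean than Mir338, and for Mir138-1 the gap was smaller than the SD of either gene: it stood at 2193 and 3675 CPM, below Mir338 in replicate 1 and above it in replicate 2. Mir138-1 and Mir138-2 were lower in replicate 1 (log2 ratios -0.72 and -0.79), opposite to Mir338. Of 14 tested, 3 were called higher in replicate 1 and 5 higher in replicate 2 by the binomial test, together 57.1% beside 52.1% of all genes, and 0 of the 14 were called by edgeR's exact test. Their median log2 ratio was 0.025 beside -0.075 over all genes. Mir7b (-0.074), 1 of those 5, turned to 0.000874 with RLE size factors, and Mir212 (0.092), 1 of those 3, lost its call with library totals (adjusted p = 0.161).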

How the data were processed

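The authors deposited, per library, a table of raw read counts per miRNA gene, on mm10 with GENCODE M21 per the notes deposited beside it; the aligner is not given in the sources used here. Gene-strand counts were used, with opposite-strand counts beside them for Mir219b and Mir3065. The summary lines (unmapped, multimapping, no-feature, ambiguous) stayed out of library sizes and tests. CPM used gene-strand totals. TMM sizes (factors 0.99 and 1.01) came from edgeR 4.0.16 (R 4.3.3) over the 472 genes that had 10 or more reads summed over both libraries, which were tested by a two-sided exact binomial test with Benjamini-Hochberg adjustment at 0.05; log2 ratios add 0.5 reads per count. With 1 group, no quasi-likelihood test exists. Strand shares used Fisher's exact test over 27 pairs. Intervals are exact binomial and, like limits at 0, cover counting error only, since PCR reads are not independent molecules. Python 3.11.15, numpy 2.4.6, scipy 1.17.1 and pandas 2.3.3 did the rest. Members and lists were chosen with earlier results of these data known. Named are the 5 members, for Mir338 and Mir219a-2 the 2 genes above and 2 below in level and the 3 nearest by log2(CPM + 1), the 6 most abundant lineage miRNAs, the 4 most abundant other pairs and the containing genes; pairs in the closing part were named after their values were seen. Mir7a-1 and Mir7a-2 matched no symbol. Alternatives were other library totals, RLE sizes, other read minimums, both-strand counts, edgeR's exact test and each library alone.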

Additional observations from a re-analysis of the deposited data

How the results depend on the processing

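Scaled to all mapped reads in place of gene-strand reads, a change of denominator alone, mean levels were 1036 CPM for Mir338, 707 CPM for Mir219a-2 and 2.55 CPM for Mir219a-1. With both strands counted together all 3 were 0 CPM. Mir126a, also overlapped on the other strand, likewise fell from 40506 gene-strand reads to 1 in replicate 1. Such a 0 goes with the overlap of the annotated genes and says nothing about level. With edgeR's exact test in place of the binomial test, the log2 ratios of Mir338 (0.82) and Mir219a-2 (-0.075) were no longer past the threshold (adjusted p = 1 for both), and 2 genes in place of 246 were called, because that test takes the spread it allows for from the same 2 libraries. RLE size factors turned the log2 ratio of Mir219a-2 to 9.47e-05 and that of Mir7b to 0.000874 (adjusted p = 1 for both), while Mir338 stayed higher in replicate 1 with library totals (0.79) and RLE (0.89). Leaving out 1 library at a time gave 1778 to 3079 CPM for Mir338, 1600 to 1718 CPM for Mir219a-2, and ratios of Mir338 to Mir219a-2 from 1.04 to 1.92. Such a value from 1 library always lies within 1 SD of the mean of 2, so these values say nothing about stability. Of 71 values recomputed under the other alternatives, 49 kept their side of the threshold or stayed within the spread, 13 lost their call, 7 moved further and 2 turned. No paired comparison between conditions was possible because the libraries form 1 group.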

Other observations

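Apart from Mir338 with Mir3065 and Mir219a-2 with Mir219b, 3 of 25 pairs of overlapping miRNA genes had more than 1% of their reads on the weaker strand. The 25 include Mir219a-1 with Mir219c. Mir3074-1, opposite Mir24-1, had 14 and 12 reads next to 97 and 187, or 8.39% of the pair (95% exact binomial interval 5.55 to 12). Mir3107, opposite Mir486, had 6 and 5 reads next to 65 and 122, or 5.56% (2.81 to 9.72). The third, Mir1a-2 opposite Mir1b, rested on 1 of 14 reads. These pairs were singled out after their values were seen. Their shares come from placed reads only, and the intervals cover counting error alone. Whether reads mapped to several places would change the shares was not tested. Mir7-1 and Mir7-2, related to the lineage gene Mir7b but not matched by the planned names, stood at 53.6 ± 22.8 and 76.4 ± 17.2 CPM (SD, n = 2). These counts, too, hold placed reads only, so they need not measure the mature arms of Mir7-1 and Mir7-2.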
